A study of Mus musculus with 9 samples.

Results

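The 8 genes described here, Irf7, Irf9, Irf1, Irf2, Irf5, Stat2, Ifnar1 and Ifnar2, are signalling genes of the type I interferon pathway. They were taken by symbol from the 24296 genes of the deposited count table, in which all 8 were present. The table holds Seq-Well data, a method in which each cell is caught in a small well with a barcoded bead that binds its polyadenylated RNA. The cells came from the whole left knee joint of 9 female 129/Sve mice aged 8 weeks. In the 5 sick mice (numbered 1, 3, 4, 5 and 6), an antigen-induced arthritis was triggered by methylated bovine serum in the knee after the mice had been sensitized to it. The 4 healthy mice (numbered 1 to 4) received phosphate-buffered saline in the same knee, and all joints were taken 1 week after the injection. Arthritis of the sick mice was checked by the submitters with immunohistochemistry, and the labels give no clinical score or batch for a single mouse.

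Type I interferons bind a receptor made of the chains IFNAR1 and IFNAR2. The kinases bound to this receptor activate STAT proteins, among them STAT2, which joins IRF9 in the complex ISGF3, and ISGF3 binds a GAAA-rich element of interferon-stimulated genes. IRF7 is both a product of such genes and a driver of further interferon-alpha transcription, and plasmacytoid dendritic cells are known for making it without prior stimulation. IRF1, IRF2 and IRF5 are relatives of IRF7: the gene of IRF1 is induced by interferon gamma, IRF2 competes with IRF1 for shared sites, and IRF5 acts downstream of Toll-like receptors in myeloid and B cells.

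In the GENCODE M21 annotation of GRCm38, all 8 were protein-coding genes. Irf7 lies at chr7:141262706-141266481 on the minus strand, Irf9 at chr14:55603571-55610030 on the plus strand and Stat2 at chr10:128270559-128292849 on the plus strand. Irf1 lies at chr11:53770014-53778374, Irf2 at chr8:46739732-46847458 and Irf5 at chr6:29526625-29541871, all on the plus strand. Both receptor genes are on the plus strand of chromosome 16, Ifnar2 at chr16:91372783-91405589 and Ifnar1 at chr16:91485238-91507441. Some members overlap other genes, and whether the counting used the strand is not given in the sources used here. Rnf31 overlaps the start of Irf9 by 123 bases on the same strand, Phrf1 the 3′ end of Irf7 by 45 bases on the opposite strand, and Tnpo3 the 3′ end of Irf5 by 1045 bases on the opposite strand. The predicted gene Gm21970 overlaps Ifnar2 by 13869 bases on the same strand, 3′ end included.

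Promoter windows of 300 bases (250 before to 50 after each start, RefSeq, GRCm38.p6) were matched for all 8 genes, in 10 windows. They were searched on both strands for GAAA followed after any 2 bases by GAAA again, the core of the ISGF3 element, and for TTCNNNGAA, the core shared by the binding sites of STAT proteins. Neither pattern was found in the windows of Irf7, Irf9 or Irf5, which says only that these letters are not in these windows. Both windows of Irf9 (chr14:55603735-55604034 and chr14:55604329-55604628) lie inside the gene as annotated by GENCODE M21. No bases before that annotated start were searched. The first pattern was found in Stat2 and Irf2, and the second in Irf1, Irf2, Ifnar1 and Ifnar2. Over all 32851 windows, 3.44% held the first pattern and 8.30% the second. Counted by gene over any of its windows, as for the members, the shares of 27025 genes were 3.99% and 9.55%. Printed here are 60 bases upstream of the start of Irf7 (chr7:141266482-141266541, minus strand), of Stat2 (chr10:128270251-128270310, plus strand) and of Irf1 (chr11:53769898-53769957, plus strand). They are the member with the largest change in the joint and 1 example of each pattern, with the match in capitals (that of Stat2 reads on the other strand).
Irf7: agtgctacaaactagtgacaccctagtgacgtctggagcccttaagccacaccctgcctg
Stat2: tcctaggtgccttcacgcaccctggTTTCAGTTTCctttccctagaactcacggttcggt
Irf1: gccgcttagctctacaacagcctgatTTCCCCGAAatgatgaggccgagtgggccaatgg

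The deposited table held 16751 cells, 4551 of healthy and 12200 of sick mice, and 8 barcodes occurred in 2 libraries. Counts per mouse ran from 897477 to 1514252 in healthy and from 1589079 to 4675909 in sick mice. Mitochondrially encoded genes took 5.48% to 10.3% of the counts in healthy and 3.09% to 6.05% in sick mice, and transcripts of ribosomal RNA type 2.45% to 6.21% and 0.970% to 2.28%. Cells with at least 10% of these 2 kinds of counts together made up 30.4% to 77.8% of healthy and 8.34% to 30.7% of sick mice's cells. Haemoglobin genes took 17.6% to 39.7% of the counts in healthy and 10.2% to 27.9% in sick mice. Healthy mouse 1 stood apart from the other healthy mice, with a median of 402 detected genes per cell against 272.5 to 290 in healthy mice 2, 3 and 4 and 357 to 391 in sick mice. Results are therefore also given without it, and without those 3 mice. In cells with under 10% of mitochondrial and ribosomal RNA-type counts, the log2 fold changes of Irf7 and Irf9 described next were 2.50 (adjusted p = 0.000199, edgeR) and 1.56 (adjusted p = 0.00218). Marrow and blood cells made up most of the labelled joint tissue, while connective tissue, muscle and endothelial markers were found in few cells (169, 160 and 16 cells by the stricter gate described with the cell classes).

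The first comparison asked which of the 8 genes differed between sick and healthy joints when all cells of a mouse were summed. Irf7 and Irf9 rose in the sick joints, and the other 6 members did not pass the test. Irf7, the regulator of interferon-alpha transcription, rose by 3.00 on the log2 scale, and Irf9, the DNA-binding subunit of ISGF3, by 1.71. STAT2, a partner of IRF9 in that complex, and both receptor chains had fold changes near 0. With edgeR's quasi-likelihood test and Benjamini-Hochberg adjustment over 10323 genes, 2 of the 8 members passed at 0.05, against 0.63% of all tested genes called higher. The median log2 fold change of the members was 0.14, and that of all tested genes -0.02. A gene's sum over a joint follows both the number of cells that make it and the RNA per cell, and a change of cell makeup and a change within cells cannot be told apart in these sums. The labels do not pair mice or name batches, so a batch that followed the groups cannot be told apart from them, and the p-values measure the spread between mice.

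Irf7 was measured at 15.4, 2.56, 8.79 and 8.75 CPM (counts of a gene relative to the total of the mouse, scaled by TMM) in the healthy mice, in the order of their numbers. The sick mice, in the same way, had 68.8, 67.0, 92.1, 100.3 and 65.3 CPM. Every sick mouse lay above every healthy mouse, and healthy mouse 1 was the highest of its group. The counts behind these values were 27, 2, 9 and 9 in the healthy and 204, 363, 160, 286 and 197 in the sick mice. The log2 fold change was 3.00 ± 0.30 (SE; 95% interval 2.37 to 3.63), with an adjusted p of 5.90e-05 in edgeR's quasi-likelihood test. Without healthy mouse 1 it was 3.48 (adjusted p = 7.58e-05). With healthy mouse 1 as the single control it was 2.36 and missed the threshold (adjusted p = 0.0582, edgeR), a fit in which the lone control is assumed to vary like the sick mice. Phrf1, whose gene overlaps the end of Irf7, had a log2 fold change of -0.25 (adjusted p = 0.717, edgeR).

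Irf9 stood at 23.4, 19.2, 18.6 and 16.5 CPM in the healthy mice and at 64.8, 56.1, 68.5, 74.3 and 59.7 CPM in the sick mice. The healthy values lay close together and the groups did not overlap. Its log2 fold change was 1.71 ± 0.18 (SE; 95% interval 1.32 to 2.09; adjusted p = 0.000124, edgeR). It was 1.83 (adjusted p = 0.000247) without healthy mouse 1 and 1.48 (adjusted p = 0.192) with that mouse as the single control. Rnf31, an E3 ligase gene that shares 123 bases with the start of Irf9, had 14 counts in healthy and 111 in sick mice and a log2 fold change of 1.21 ± 0.39 that did not pass (adjusted p = 0.174, edgeR).

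Stat2 did not separate the groups. Healthy mice had 14.3, 16.7, 8.79 and 13.6 CPM and sick mice 14.5, 13.1, 18.4, 14.7 and 14.3 CPM, so the values overlapped throughout. The log2 fold change was 0.16 ± 0.24 (95% interval -0.36 to 0.68; adjusted p = 0.828, edgeR). The upper end of that interval lies below the lower end for Irf9, though the difference between the genes was not tested.

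The receptor genes also overlapped between groups. Ifnar1 was at 61.2, 80.7, 85.9 and 68.0 CPM in healthy mice and at 66.1, 69.3, 77.7, 106.6 and 87.5 CPM in sick mice. Its log2 fold change was 0.15 ± 0.18 (95% interval -0.23 to 0.52; adjusted p = 0.748, edgeR). Ifnar2 was at 45.7, 26.9, 38.1 and 29.2 CPM in healthy mice and at 38.1, 39.7, 17.3, 51.9 and 47.4 CPM in sick mice, with sick mouse 4 lowest of all 9. Its log2 fold change was 0.14 ± 0.27 (95% interval -0.43 to 0.71; adjusted p = 0.850, edgeR).

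Irf1, Irf2 and Irf5 had fold changes near 0 as well. Irf1 ran from 24.4 to 41.7 CPM in healthy and from 25.3 to 45.2 CPM in sick mice, a log2 fold change of 0.13 ± 0.22 (95% interval -0.35 to 0.60). Irf2, its antagonist, ran from 44.9 to 64.4 and from 43.8 to 64.8 CPM, a log2 fold change of -0.10 ± 0.18 (95% interval -0.48 to 0.27) that became 0.21 when totals were not scaled. Irf5 ran from 8.97 to 13.7 and from 8.63 to 17.5 CPM, a log2 fold change of 0.05 ± 0.29 (95% interval -0.56 to 0.67). The ranges of the groups overlapped for all 3 genes. In total, 2 of the 8 members, Irf7 and Irf9, had every sick mouse above every healthy mouse, against 2.85% of the tested genes.

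**Figure D1:**
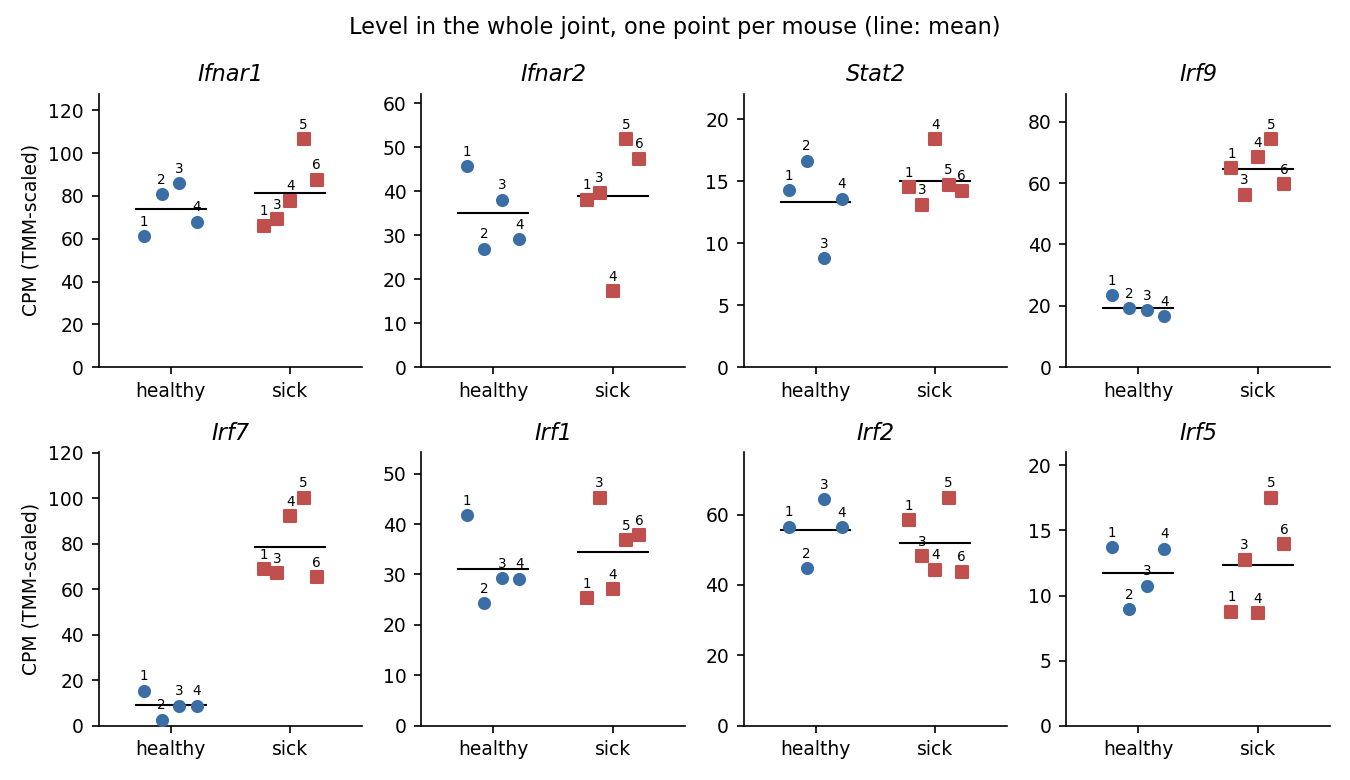
CPM (TMM-scaled, y axis) of each of the 8 genes in healthy and sick mice, 1 point per mouse with a line at the group mean. Irf7 (healthy 2.56 to 15.4, sick 65.3 to 100.3) and Irf9 (16.5 to 23.4 and 56.1 to 74.3) separate the groups, while the points of the other 6 genes overlap.

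Without scaling of the totals, the median log2 fold change of all genes moved to 0.29, and 108 genes were called higher and 18 lower, against 65 and 31 with TMM. Irf7 (3.27) and Irf9 (1.99) passed there too, so relative to that shift both stayed close to their scaled values.

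Around the 8 genes, the rest of the pathway was read from lists of known genes. Of 10 tested receptor, kinase and STAT genes described here, 1 rose, 9 did not pass, and the median log2 fold change was 0.085. Stat3, which serves IL-6 and IL-10 family cytokines, rose by 0.94 ± 0.21 (adjusted p = 0.0483), just inside the threshold. Il10rb (0.86, adjusted p = 0.127) and Ifngr2 (0.56, adjusted p = 0.273), receptor chains of IL-10 type cytokines and of interferon gamma, did not pass, nor did Stat6 (0.28, adjusted p = 0.553), the STAT of IL-4 and IL-13.

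None of the 5 tested genes among 7 other IRF family genes passed, and the smallest unadjusted p was 0.169 (Irf3, log2 fold change 0.52). Irf8, the factor of monocyte and dendritic cell fate, had a log2 fold change of 0.09 and Irf4, its lymphoid relative, -0.38, and Irf2bp2, a corepressor that binds IRF2, -0.073. The list's median was -0.03. Among 7 negative regulators, Usp18, the protease that removes ISG15 and blocks the receptor, rose by 2.93 ± 0.53 (adjusted p = 0.0113, edgeR), the other 6 did not pass, and the median was 0.16. Its healthy values were 0.572 to 3.89 CPM and its sick values 9.23 to 24.7 CPM. Ptpn6 (0.30), Socs1 (0.42) and Ptpn11 (0.16) were closest after it.

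Of 10 tested sensors and adaptors, Ifih1, the RNA sensor MDA5, rose by 1.75 ± 0.28 (adjusted p = 0.00667, edgeR), and the list's median was 0.31. Ddx58 (0.71), Mb21d1 (0.50) and Myd88 (0.43) did not pass. Interferon genes themselves were too sparse to test: of 21 listed ligands 2 were measured, Ifnb1 with 1 count in healthy and 2 in sick mice and Ifng with 1 and 11.

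Genes induced by interferons are the products that ISGF3 and related complexes switch on. Of 29 tested genes induced by type I interferon, 19 rose, 28 had a fold change above 0, and the median log2 fold change was 1.75; 24 had every sick mouse above every healthy mouse. Rtp4 (4.64), Ifi27l2a (3.17), Xaf1 (2.88) and Oas1a (5.28) had the smallest p-values. Ifit3, with 0 counts in healthy and 161 in sick mice, stood at 18.8 times a floor of 3 counts over the healthy group. This ratio leaves out the counting error of the sick value. Of 11 tested genes induced by interferon gamma, 2 rose, Gbp7 (1.09 ± 0.15, adjusted p = 0.00189) and Psme2 (0.66 ± 0.14, adjusted p = 0.0276), and the median was 0.73. Psmb8 (0.74, adjusted p = 0.0598) and Psmb9 (0.73, adjusted p = 0.0749), subunits of the immunoproteasome, fell just outside the threshold. These lists were chosen with earlier results of these mice known and are no independent support.

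**Figure D2:**
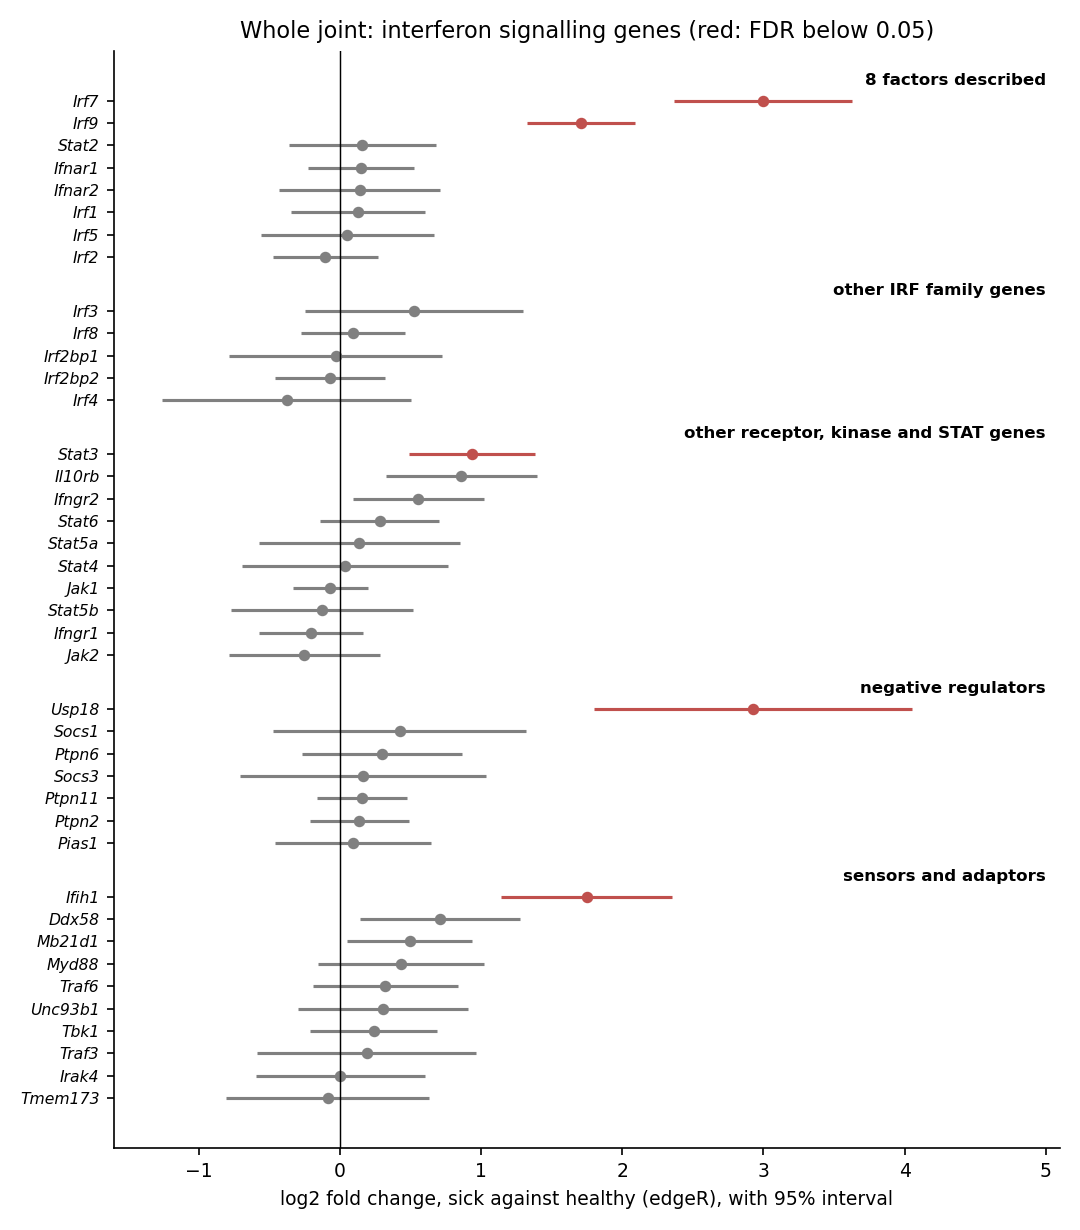
Log2 fold change, sick against healthy, with its 95% interval (x axis) for the 8 genes and the tested genes of the pathway lists (y axis), with those below an adjusted p of 0.05 in red. Irf7 (3.00), Irf9 (1.71), Stat3 (0.94), Usp18 (2.93) and Ifih1 (1.75) stand to the right, and Stat2, Ifnar1, Ifnar2, Irf1, Irf2 and Irf5 lie around 0.

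Across the genome, 20 of 51 genes called higher that had a promoter window (39.2%) held the GAAA repeat, against 271 of 6375 tested genes (4.25%). For TTCNNNGAA the shares were 6 of 51 (11.8%) and 521 of 6375 (8.17%). Of the 2 members that rose, neither held the first pattern in its windows, but those of Irf9 lie inside the gene. Of the 2 that held it, Stat2 and Irf2, neither passed the test. The Stat2 match printed above spans bases -222 to -213 from the start, and the Irf1 match bases -90 to -82.

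The second comparison asked in what share of cells each gene was detected. Counts per cell were low, so a share counts cells with at least 1 count and not cells that express the gene. Irf7 was detected in 37 of 4551 healthy cells and 1008 of 12200 sick cells. Per mouse the shares were 1.90%, 0.114%, 0.50% and 0.736% in the healthy mice and 8.17%, 7.69%, 8.88%, 10.9% and 6.56% in the sick mice. The lowest sick mouse was well above the highest healthy mouse. Irf9 was detected in 3.43%, 1.37%, 1.29% and 1.06% of the cells of healthy mice and in 7.69%, 6.55%, 7.30%, 7.86% and 5.86% of those of sick mice, again without overlap.

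Thinned to 400 counts per cell, which removes differences of depth and left out 1 sick cell, the shares were lower and the groups stayed apart for Irf7 and Irf9. Irf7 was then detected in 0.346% ± 0.236 (SD, n = 4) of healthy and 3.68% ± 0.644 (n = 5) of sick cells, against 0.813% ± 0.770 and 8.44% ± 1.61 without thinning. Irf9 was detected in 0.794% ± 0.265 of healthy and 2.84% ± 0.560 of sick cells after thinning, against 1.79% ± 1.10 and 7.05% ± 0.834 before. Irf7 and Irf9 were the 2 of 8 members without overlap, both unthinned (4.73% of tested genes) and thinned (6.21%).

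The shares of the 6 other genes overlapped between groups, and healthy mouse 1 had the highest healthy share of each. Without that mouse, 7 of 8 members had every sick mouse above every healthy mouse, but so did 43.4% of all tested genes. After thinning the count without it was 3 of 8 (Irf7, Irf9 and Irf5) against 20.4% of tested genes. Ifnar1 was detected in 5.91% ± 1.12 of healthy and 8.12% ± 1.16 of sick cells, and in 2.63% ± 0.728 and 3.35% ± 0.387 after thinning. Stat2 was detected in 1.11% ± 0.566 and 1.67% ± 0.193 of the cells, and in 0.536% ± 0.0713 and 0.604% ± 0.0828 after thinning, a difference smaller than the spread between mice.

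**Figure D3:**
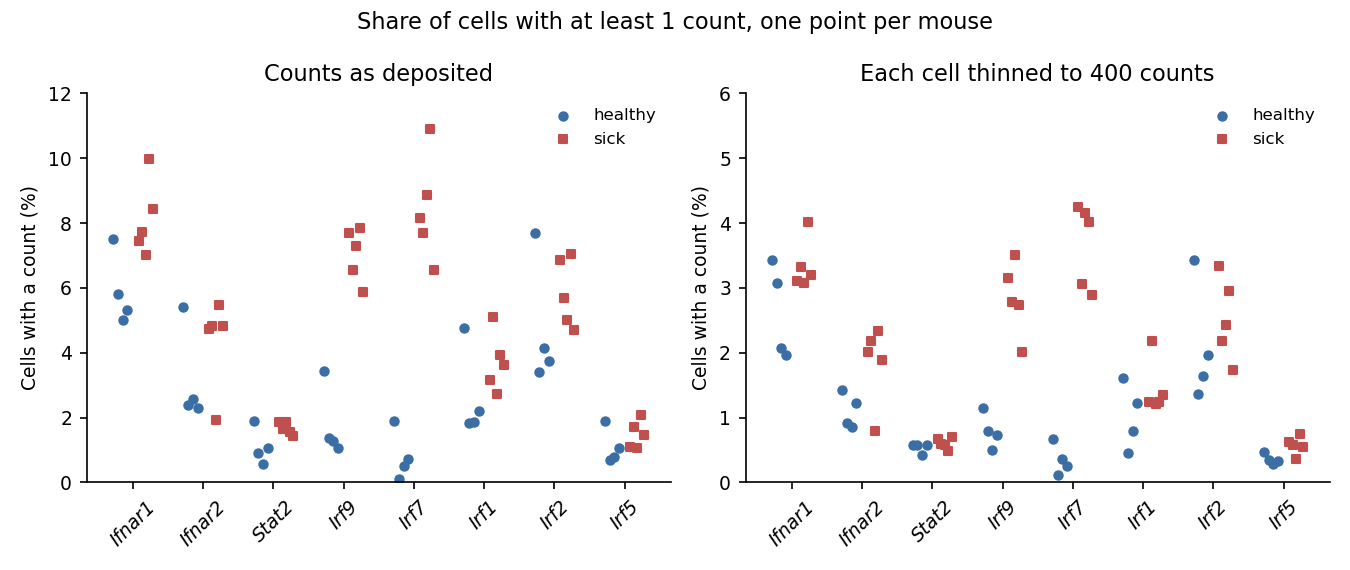
Share of cells with at least 1 count (y axis, %) of each of the 8 genes, 1 point per mouse, with counts as deposited and after thinning each cell to 400 counts. The sick mice lie above all healthy mice for Irf7 (6.56% to 10.9% against 0.114% to 1.90%) and Irf9 (5.86% to 7.86% against 1.06% to 3.43%), and the groups overlap for the other 6 genes.

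The third comparison asked in which cells Irf7 and Irf9 differed. Irf7 rose in the cells gated as neutrophils and as erythroid cells, the 2 classes in which members could be tested. Irf9 rose in both by the first of 2 gates, and by the second it passed only in erythroid cells. Cells were assigned to 1 of 12 classes by counts of at least 2 different marker genes of that class, more than of any other. This rule put 10152 cells (60.6%) into the neutrophils and 2944 into the erythroid cells, and neutrophil transcripts are so abundant that cells of other types can meet it. A second gate, chosen after the data were seen, asked that the marker counts exceed what the depth of the cell gives (Poisson tail below 0.001). It is called the stricter gate here, but it held fewer cells than the 2-marker rule only in neutrophils and erythroid cells. Every other class held more, such as monocytes or macrophages (648 against 386 cells) and plasmacytoid dendritic cells (83 against 19). The stricter gate left 4476 neutrophils (567 healthy, 3909 sick) and 1765 erythroid cells (341 and 1424), with 7936 cells in no class. Of the 567 healthy neutrophils 341 were of healthy mouse 1, against 89, 70 and 67 of healthy mice 2, 3 and 4. Doublets were not called.

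In neutrophils by the 2-marker rule, Irf7 stood at 15.99, 3.97, 10.6 and 11.7 CPM in healthy and 74.3, 75.6, 106.8, 110.2 and 71.5 CPM in sick mice. Irf9 stood at 24.99, 23.8, 21.1 and 21.0 CPM in healthy and 70.2, 57.3, 80.7, 77.8 and 57.3 CPM in sick mice. Neither gene overlapped between groups. Of 7 tested members these 2 passed, against 0.824% of 7527 genes called higher: Irf7 with a log2 fold change of 2.78 ± 0.30 (adjusted p = 4.66e-05, edgeR) and Irf9 with 1.40 ± 0.22 (adjusted p = 0.00287). Ifnar1 (0.19 ± 0.21) came next by p, and the other 4 tested members lay between -0.02 and 0.23.

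By the stricter gate, 1 of 6 tested members passed in neutrophils, against 0.367% of 4358 genes. Irf7 rose by 2.67 ± 0.46 on the log2 scale (adjusted p = 0.00197, edgeR). Irf9 had a similar fold change to that by the 2-marker rule, 1.48 ± 0.41, but did not pass (adjusted p = 0.112). The counts behind it were few in healthy mice: 14, 0, 1 and 2 against 70, 81, 32, 69 and 53 in sick mice. Healthy mouse 1 gave most of them, and without it the fold change of Irf9 was 2.44 (adjusted p = 0.0818, edgeR).

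Erythroid cells, the haemoglobin-making precursors of red cells, showed the same pair. By the 2-marker rule Irf7 was at 6.24, 0, 5.70 and 8.10 CPM in healthy and at 64.6, 56.8, 84.1, 86.8 and 58.9 CPM in sick mice. Irf9 was at 21.8, 4.55, 11.4 and 0 CPM in the healthy and at 78.7, 56.8, 69.4, 100.7 and 63.1 CPM in sick mice. The groups were apart for both genes. Of 6 tested members 2 passed, against 0.594% of 4548 genes: Irf7 rose by 3.43 ± 0.42 (adjusted p = 3.46e-05, edgeR) and Irf9 by 2.73 ± 0.44 (adjusted p = 0.000456). Ifnar1 had a log2 fold change of -0.46 ± 0.30 and did not pass, and the remaining 3 lay between -0.12 and 0.21. By the stricter gate both passed as well, at 3.44 ± 0.61 (adjusted p = 0.00111) and 2.42 ± 0.53 (adjusted p = 0.00923), 2 of 4 tested members against 0.854% of 3044 genes. Without healthy mouse 4, Irf9 no longer passed there (2.08, adjusted p = 0.0566, edgeR), and without healthy mouse 1 its fold change was 4.47 (adjusted p = 0.0030).

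Neutrophil RNA was present in the erythroid cells: S100a8, a neutrophil gene, stood there at 11.9% of its level in neutrophils of sick mice, by the stricter gate. Irf7 in the same cells stood at 77.5% of its neutrophil level, and Irf9 above its neutrophil level, at 79.8 against 68.0 CPM. Of all Irf7 counts of sick mice, 31.0% lay in neutrophils, which held 30.5% of all counts, and 12.1% in erythroid cells, which held 15.4%. Erythroid cells held a median of 6 neutrophil marker counts by the 2-marker rule and 8 by the stricter gate. Their own markers had medians of 14 and 22 counts. When at most 1 marker of another class was allowed, 386 of the 2944 erythroid cells of the 2-marker rule were left. In those cells 190 genes could be tested, with no member among them. The part of free neutrophil RNA in the values of other classes was not tested. Among the neutrophil markers none of 12 was called in the whole joint by edgeR, and their median log2 fold change was 0.55. Their summed levels were 11141 to 32273 CPM in healthy and 23188 to 38890 CPM in sick mice. By the stricter gate, neutrophils made up 13.27% ± 12.99 (SD over mice) of healthy and 31.4% ± 6.78 of sick mice's cells. By the 2-marker rule the shares were 52.3% ± 9.31 and 63.03% ± 6.76. Whether the share of neutrophils differed between groups was not tested, and the absent calls do not show that it was equal.

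Whether the change differed between classes was tested in a fit with the mouse as a block. The difference between neutrophils and erythroid cells was -0.72 on the log2 scale for Irf7 (95% interval -1.82 to 0.38; adjusted p = 0.732, edgeR). For Irf9 it was -1.31 (95% interval -2.35 to -0.27), with an unadjusted p of 0.0158 that did not hold after adjustment (adjusted p = 0.421). Without 1 mouse at a time it ranged from -2.14 (adjusted p = 0.0507, edgeR, without healthy mouse 1) to -0.86 (without healthy mouse 4). By the stricter gate the difference of Irf9 was -0.63 (95% interval -2.06 to 0.80), and -2.38 and -0.32 without the same mice. Of 6 members tested, 0 passed by either gate, and 1 and 0 had an unadjusted p under 0.05. The same was true of all genes, of which 0.0% passed by either gate (672 of 7140 and 299 of 4925 had an unadjusted p under 0.05). The intervals are wide, so effects of the same size in both classes were not shown.

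Against granulocyte progenitors, the marrow precursors with primary granule genes, the difference could be fitted for 7 members by the 2-marker rule and 4 by the stricter gate. Again 0 passed, against 0.0138% and 0.0% of all genes, and 1 member (Irf1, -1.83, 95% interval -3.52 to -0.14) had an unadjusted p under 0.05 by the 2-marker rule. By that rule Irf1 in progenitors was at 10.7, 19.9 and 21.2 CPM in healthy mice 1, 3 and 4. Sick mice 1, 3, 4, 5 and 6 had 41.3, 80.1, 0, 82.3 and 58.8 CPM, so the groups overlapped. By the stricter gate the difference of Irf1 was not fitted. Its pooled counts in progenitors were 2 in healthy and 68 in sick mice, a ratio of 8.02 with a 95% counting interval of 2.14 to 67.6. The pairs with plasmacytoid dendritic cells, monocytes or macrophages and B-lineage cells could not be fitted, since too few healthy mice had 20 cells of those classes.

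Levels by class, given from the stricter gate as CPM of the counts pooled per group with exact Poisson intervals, show how widely the 2 genes were found. These intervals cover counting error only, and orders are given over the 8 classes with at least 100 sick cells. Among these, in sick joints, Irf7 was highest in monocytes or macrophages at 139 CPM (113 to 170), followed by neutrophils at 83.6 CPM (75.4 to 92.5). Skeletal muscle (69.2), erythroid (64.8), eosinophil (60.3), connective tissue (58.6) and B-lineage cells (57.8) came next, with intervals that all overlapped. Granulocyte progenitors were lowest of the 8 at 41.2 CPM (31.0 to 53.6). The 4 classes with fewer sick cells had 1 to 8 Irf7 counts each and were not ranked. Over the mice, the values of sick monocytes (135.0 ± 63.2 CPM, SD, n = 5, range 66.1 to 232) and neutrophils (78.7 ± 19.3, range 56.3 to 105) overlapped, so their order rests on pooled counts.

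Healthy joints had Irf7 at 31.9 CPM in monocytes or macrophages, 12.4 in neutrophils, 5.44 in erythroid cells and 3.17 in granulocyte progenitors. These rest on 6, 8, 3 and 1 counts, and of the 8 in neutrophils 5 were of healthy mouse 1. The ratios of sick to healthy were 4.37 (95% counting interval 1.94 to 12.2), 6.76 (3.40 to 15.8), 11.9 (4.00 to 58.4) and 12.98 (2.23 to 522), with intervals that overlapped in every pair. In B-lineage cells no Irf7 count was found in healthy mice and 20 in sick mice (57.8 CPM, 35.3 to 89.3). The sick level was 1.41 times a floor of 3 counts over the healthy group. In eosinophils the counts were 0 and 10, and the sick level was 3.22 times that floor. Both ratios leave out the counting error of the sick value and are no lower bounds. Plasmacytoid dendritic cells numbered 14 healthy and 69 sick cells. They had 0 and 8 Irf7 counts, and 0 of 14 cells allows a share of cells with a count of up to 21.4% (3 of 14), so a basal level of this class could not be read at this depth.

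Irf9 varied less over the classes. In sick joints it was at 91.0 CPM in monocytes or macrophages, 79.8 in erythroid cells, 68.0 in neutrophils and 51.6 in granulocyte progenitors. The highest of the 8 classes with at least 100 sick cells was 2.15 times the lowest (eosinophils, 42.2), against 3.39 times for Irf7. Neighbours in this order had overlapping intervals. In healthy joints Irf9 was at 26.6, 14.5, 26.3 and 25.4 CPM in the first 4 of those classes, from 121, 341, 567 and 142 cells. These healthy values rest on few counts, and most of those in neutrophils were of healthy mouse 1.

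Levels of the receptor genes by class were not tested against each other. Ifnar1 in sick joints was at 199.6 CPM (167 to 236) in monocytes or macrophages, 124 in B-lineage cells, 56.9 in neutrophils and 42.7 in erythroid cells. The healthy values of the same classes were 218, 68.5, 61.8 and 47.1 CPM, from only 121, 74, 567 and 341 cells. Every sick mouse had more Ifnar1 in monocytes (142 to 425 CPM) than in neutrophils (44.8 to 79.5 CPM). By the 2-marker rule the neutrophil values were higher, 89.2 ± 14.7 CPM against 58.7 ± 14.1 by the stricter gate. They were still below the monocytes of every sick mouse with at least 20 such cells (135 to 248 against 76.5 to 113 CPM). Sick mouse 6, with 14 monocytes by that rule, gave no monocyte value. The 69 sick plasmacytoid dendritic cells had 37 Ifnar1 counts, or 660 CPM (465 to 910). That interval lay above those of the 8 classes with at least 100 sick cells. The 14 healthy cells of this class, with a median of 823 counts per cell, stood at 122 CPM. They are too few for a comparison of the groups. By the 2-marker rule the class held only 14 sick cells. Of the 83 cells of the stricter gate, 18 were in this class by the 2-marker rule. In 20 of the 83 (24.1%) the Poisson tail lay near the threshold, between 0.0001 and 0.001. Ifnar2 was at 392 CPM (246 to 594) in the 69 sick cells. Over the 8 classes with at least 100 sick cells it varied by 2.23 times, from 28.9 CPM (13.9 to 53.2) in B-lineage cells to 64.6 CPM (46.9 to 86.7) in monocytes or macrophages, and the intervals of these 2 classes overlapped.

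Irf5 was concentrated in monocytes or macrophages, at 57.2 CPM (40.7 to 78.3) in sick joints against 5.80 (3.79 to 8.50) in neutrophils and 6.17 (3.37 to 10.4) in erythroid cells. Over the sick mice the ranges were 44.1 to 78.6 CPM and 3.31 to 10.8 CPM in monocytes and neutrophils, without overlap. By the 2-marker rule they were 55.1 to 68.7 and 6.49 to 19.6 CPM, without sick mouse 6 in the monocytes (14 cells). It was detected in 7.02% of sick monocytes (median 1038 counts per cell) and in 0.913% of sick erythroid cells (median 1304 counts), a class that should lack it. After thinning these shares were 3.42% and 0.0702%. The highest class was 9.90 times the lowest for Irf5 (B-lineage cells, with 2 counts) and 8.47 times for Stat2, which was also led by monocytes or macrophages (38.2 CPM), though 3 of its classes held 1 count each.

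Irf1 was led by B-lineage cells (75.1 CPM, 49.1 to 110) ahead of monocytes (54.3) and granulocyte progenitors (50.9), with overlapping intervals, and erythroid cells were lowest at 23.8 CPM. Irf2 was at 95.4 CPM in monocytes or macrophages and 92.5 in B-lineage cells, and at 38.9 and 40.5 in granulocyte progenitors and erythroid cells.

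**Figure D4:**
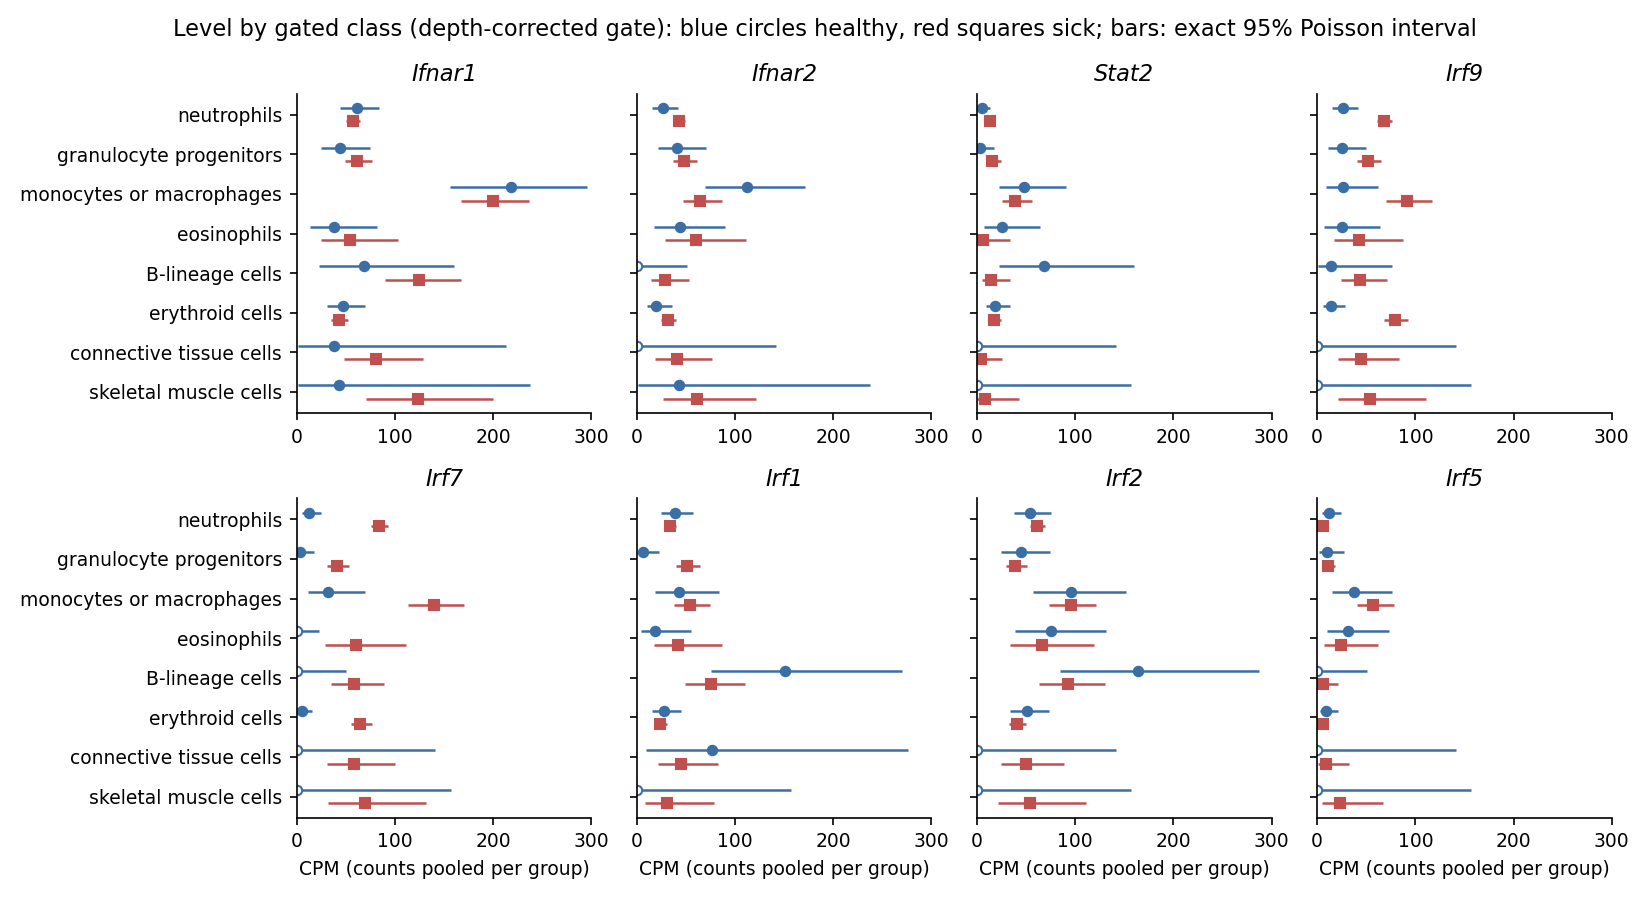
CPM of the counts pooled per group (x axis) by gated class (y axis, stricter gate), blue circles for healthy and red squares for sick mice, with exact 95% Poisson bars. Irf7 in sick joints lies between 41.2 and 139 CPM over the 8 classes with at least 100 sick cells, while Irf5 stands out in monocytes or macrophages (57.2 CPM).

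By class, Irf7 was detected in 8.24% of sick neutrophils (5 of 567 healthy cells, 0.882%), 9.13% of sick erythroid cells (3 of 341) and 13.3% of sick monocytes or macrophages (5 of 121). In B-lineage cells it was detected in 5.37% of sick cells and in 0 of 74 healthy cells, which allows a share of up to 4.05% (3 of 74). Thinned to 400 counts, the shares were 3.38% in sick neutrophils, 2.67% in sick erythroid cells and 5.69% in sick monocytes. The median counts per cell were 838, 1304 and 1038 in these sick classes and 848, 1217 and 1120 in the healthy ones. Irf7 can be induced in nearly any cell, so no class served as its background, and the part of free RNA in its shares was not tested.

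The genes whose levels ran most like those of Irf7 were sought over the 41 sums of a mouse and a class (2-marker rule, at least 20 cells), among 3078 genes with a mean of at least 50 CPM. They were Xaf1 (Pearson r of log2 CPM = 0.896), Eif2ak2 (0.880), Ifi27l2a (0.877), Trim30a (0.818) and H2-T23 (0.783). The sums share mice and depth and come from both groups, so the values are a description. By the stricter gate, over 53 sums and 3033 genes, the first 4 of these were again among the 5 most alike, with Xaf1 first (0.852). For Irf1 the 5 genes were Zfp326 (0.888), Ubxn4 (0.872), Snx2 (0.863), Zfp36l2 (0.860) and Pdcd10 (0.859) by the 2-marker rule, and 5 others led by Acbd3 (0.734) and Blnk (0.714) by the stricter gate, so the likeness of Irf1 rests on the gate.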

How the data were processed

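Single-cell RNA of whole joints was measured in 4 healthy and 5 sick mice. The authors deposited 1 table of raw counts per gene and cell; all its values were whole and not negative, and its cells had at least 397 counts and 199 genes. Per the labels' protocols, reads of several sequencing rounds were merged and processed with bcl2fastq, Picard and the Drop-seq Core Computational Protocol 1.0.1 and aligned with STAR. Those protocols name the human build GRCh38, and the submitters' processing notes name GRCm38 and mm9; all symbols follow mouse nomenclature, and coordinates come from GRCm38 annotation by symbol.

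Counts were summed per mouse over all cells or the cells of a class (mice with at least 20 such cells, at least 3 mice a group) and tested in R 4.3.3 by the quasi-likelihood F test of edgeR 4.0.16, after filterByExpr and with TMM. A gene was called at a Benjamini-Hochberg adjusted p below 0.05, taken over every gene tested in that comparison. Fold changes are sick over healthy. Depth was 897477 to 4675909 counts per mouse. Pairs of mice of 1 group differed by 4.14 to 32.5 times sampling noise (chi-square per degree of freedom), so each mouse counts once. Intervals of counts and shares are exact 95% intervals, the limit given for a share of 0 is 3 counts over the cells, and both cover counting error only. Whether the counts are of molecular barcodes or reads is not given in the sources used here. The fits named next, and no others, were also run on simulated counts with known changes. In the whole joint (10323 genes) 51% of changes of 2-fold and 90% of those of 4-fold were recovered. In neutrophils by the stricter gate (4358 genes) it was 38% and 78%, and for the difference between neutrophils and erythroid cells (4925 genes) 6% and 49%. Of the genes called in the simulations, 11 (7.24%) were unchanged ones in the whole joint and 3 (2.52%) in neutrophils.

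Alternatives were DESeq2 1.42.0, its size factors, no filter, no scaling, each mouse left out, the mouse number as a term, other cell filters and gates, and thinned counts. All 8 members were described throughout, and of other lists the 4 tested genes with the smallest p were named. For Irf7 and Irf1, the 5 genes most alike were named. A gene of the pathway lists is not reported here and was left out of its list's count and median. The members, lists and markers were chosen with earlier results of these data known. Python 3.11.15, numpy 2.4.6, scipy 1.17.1 and pandas 2.3.3 were used.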

Additional observations from a re-analysis of the deposited data

How the results depend on the processing

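In the whole joint Irf7 and Irf9 were called under every alternative except with healthy mouse 1 as the single control, where 0 members were called (Irf7 2.36, Irf9 1.48). Leaving out 1 mouse at a time, 2 members were called each time, and Irf7 ranged from 2.77 to 3.48 and Irf9 from 1.64 to 1.83. Genes called higher numbered 65, against 162 with DESeq2, 210 with no filter, 108 with no scaling, 38 with cells of at least 400 genes, 35 with cells of under 10% mitochondrial and rRNA-like counts, 35 with cells of a class by the stricter gate, 9 with healthy mouse 1 as the single control, and 39 to 152 without 1 mouse.

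The mouse numbers 1, 3 and 4 occur in both groups but do not pair the mice (correlations of same-numbered mice 0.17, -0.04 and 0.07; 1 of 3 correlated best with its own number). With the number as a block, 44 genes were called higher in the whole joint, among them Irf7 (2.73, adjusted p = 0.000952, edgeR) and Irf9 (1.68, adjusted p = 0.00686). By the stricter gate the block left 0 members in neutrophils (Irf7 2.21, adjusted p = 0.0712) and 0 in erythroid cells (Irf7 3.08, adjusted p = 0.0574; Irf9 2.07, adjusted p = 0.199). The block also turned Irf1 (-0.082), Irf5 (-0.34), Ifnar1 (-0.0076) and Ifnar2 (-0.28) in the whole joint.

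Other members with changes near 0 turned direction as well: Irf1 with healthy mouse 1 as the single control (-0.24) and without 1 mouse (-0.0095, without sick mouse 3, to 0.32), Irf2 without scaling (0.21), and Irf5 with that control (-0.12), with thinned sums (-0.19), with cells of a class (-0.43) and without 1 mouse (-0.11 to 0.14; -0.03 without healthy mouse 2). Ifnar2 turned with that control (-0.20), with thinned sums (-0.034) and with cells of under 10% mitochondrial and rRNA-like counts (-0.052). In neutrophils the 2-marker rule called 2 members and the stricter gate 1, with Irf9 at 1.40 (adjusted p = 0.00287, edgeR) and 1.48 (0.112); with no filter the stricter gate called 2 (Irf9 1.69, adjusted p = 0.0115). In erythroid cells by the stricter gate, leaving out 1 mouse called 1 to 2 members: without healthy mouse 4, Irf9 was 2.08 (adjusted p = 0.0566). Over the mice left out, Irf9 there ranged from 2.08 to 4.47, and the difference of Ifnar1 between neutrophils and erythroid cells from -0.13 to 0.92.

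Shares depended on depth: the difference between groups was 7.62 percentage points for Irf7 and 3.33 after thinning, and 5.26 for Irf9, 2.04 after thinning and 7.27 in cells of at least 400 genes. Leaving out 1 mouse, 2 to 7 members had every sick mouse above every healthy mouse. The 7 were found without healthy mouse 1, where 43.4% of all tested genes did the same. After thinning it was 3 members without that mouse, against 20.4% of all tested genes. Where no cause is named above, the cause was not tested. Granulocyte progenitors with at least 50 cells per mouse, or with a stricter marker rule, were not run, as too few mice were left, and DESeq2 gave no adjusted p for members in erythroid cells by the stricter gate.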
